A study of Mus musculus with 2 samples.

Results

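The genes described here encode the matrix metalloproteinases (MMPs), the membrane proteinases of the ADAM family, the secreted ADAMTS proteinases and the tissue inhibitors of metalloproteinases (TIMPs). They were taken by symbol alone, as every gene named Mmp, Timp, Adam or Adamts followed by a number and at most 1 letter. The rule found 79 of the 24542 gene symbols in the deposited table, namely 23 Mmp, 4 Timp, 33 Adam and 19 Adamts genes, represented by 143 RefSeq transcripts. The mice were NRK-2 KO males of strain C57BL/6, which lack a nicotinamide riboside kinase encoded by Nmrk2, and their Control littermates of the same strain and sex. All mice of both genotypes had the proximal left anterior descending coronary artery tied off for good, and tissue was taken after 7 days, so every library comes from an infarcted heart. Total RNA came from the remote left ventricle, away from the scar and its border. The labels give neither the age of the mice nor how the knockout was made.

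MMPs are zinc-dependent enzymes that are made as inactive precursors and, once activated, cut collagens and other matrix proteins. TIMPs bind the active site of these enzymes and block it, and Timp3, which stays bound to the matrix, also inhibits several ADAM and ADAMTS enzymes. ADAMs sit in the cell membrane and release the outer part of growth factors, cytokines and receptors, and ADAMTS enzymes are secreted and cut proteoglycans or trim procollagens. In the infarcted heart these families are known for matrix breakdown, scar formation and remodelling of the surviving muscle.

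Although only 1 sample per genotype is listed in the labels, the table has 3 numbered libraries of each. Whether they are separate animals is not said, and the p-values given here measure only how libraries vary. Depth was 26975513 to 33086384 reads in the libraries labelled KO and 22377348 to 22831189 in control. Levels are CPM, library-scaled read counts with TMM factors, with means ± SD over the 3 libraries of each genotype, and fold changes (log2) are KO over control. Nmrk2 itself had 808, 9 and 0 reads in the libraries labelled KO 1, 2 and 3, against 308, 270 and 118 reads in control 1, 2 and 3. KO 1 thus goes against its label, and every direction below rests on libraries labelled KO of which 1 held more Nmrk2 reads than any control. Cardiomyocyte markers were abundant in all 6 libraries, with a summed level of 17500 to 29550 CPM in the libraries labelled KO and 31980 to 55320 CPM in control, and all 6 of these markers had a fitted fold change below 0. The 4 lung markers summed to 405 CPM in KO 2, 15.1 CPM in KO 3 and at most 0.867 CPM in the other libraries. The 5 markers of T and B cells summed to 166 CPM in control 3 against 3.43 and 3.71 CPM in control 1 and 2.

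Of the 79 genes, 53 had enough reads for the test across all genes, and 26 did not. Of the 53, 9 rose in the libraries labelled KO and 0 fell by edgeR's quasi-likelihood test (adjusted p under 0.05 over all 14466 genes tested). Over all genes tested 2.64% rose and 1.12% fell. The risers were the gelatinase Mmp2, the membrane-bound Mmp16, the inhibitor Timp3, the membrane proteinases Adam9 and Adam19, and Adamts2, Adamts4, Adamts6 and Adamts16. At an unadjusted p under 0.05 there were 21 higher and 3 lower members, where 12.3% of all genes were higher and 13.5% lower. DESeq2 called 17 members higher and 2 lower, and 7.74% of all genes higher and 9.32% lower. The 53 had a median log2 fold change of 0.63, against 0.01 over all genes tested, and 43 of the 53 (81.1%) had a fitted fold change above 0, against 51% of all genes. In 23 of the 53 (43.4%) every library labelled KO lay above every control library, against 16.4% of all genes, and in 4 (7.55%) every one lay below, against 14.5%. All 9 calls were lost in 5 of the 6 fits that left out 1 library (KO 1, KO 2, KO 3, control 1 or control 2), where 0 members were called. At an unadjusted p under 0.05 there were 22, 18 and 22 members without KO 1, 2 or 3, where 20.2%, 15.7% and 22.7% of all genes were under it. There were 22 and 18 without control 1 or 2, where 17.8% and 16.2% of all genes were, and 30 without control 3, where 39.9% were. Without control 3 there were 19 risers and 1 faller among the members, and 1765 and 1959 among the 14775 genes tested.

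**Figure D1:**
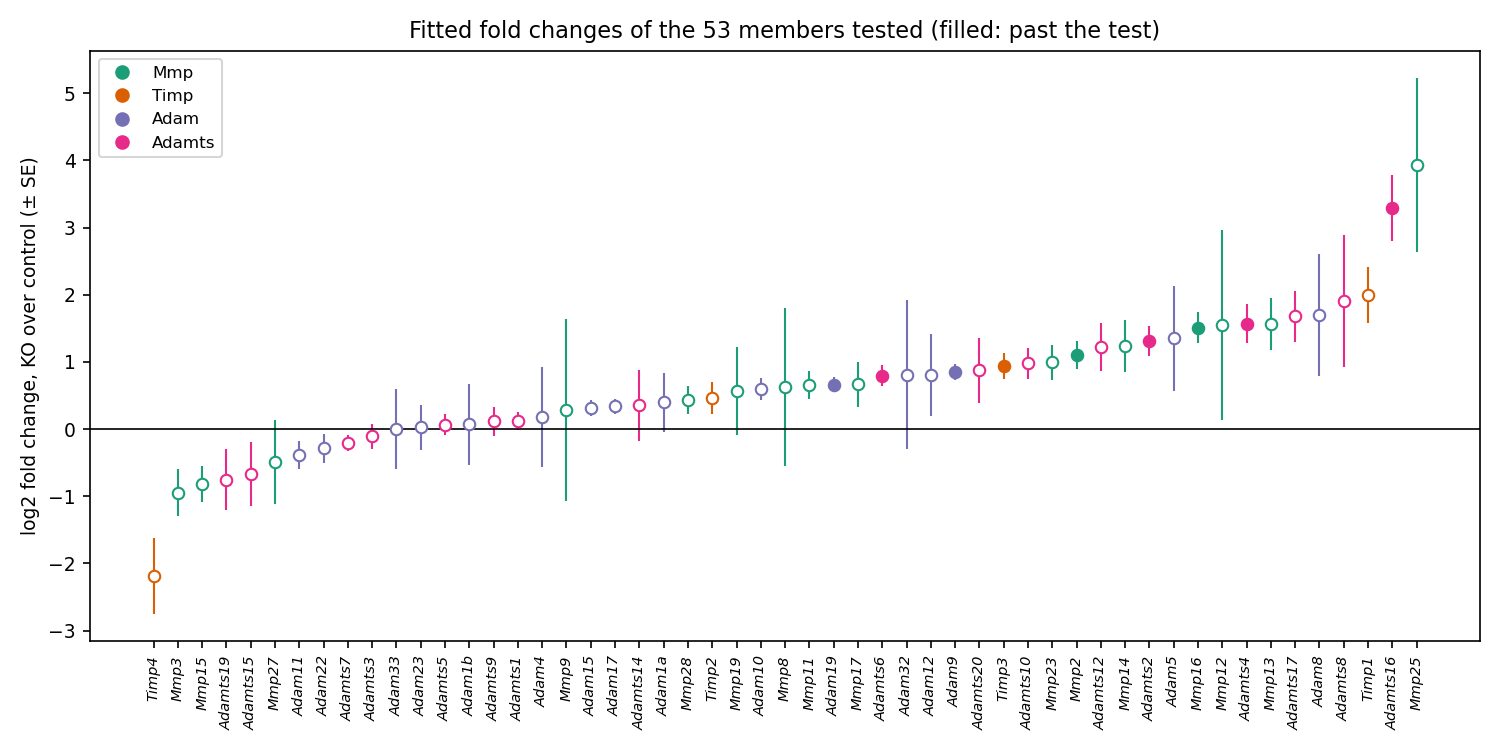
Fitted log2 fold change, KO over control, with its SE (vertical axis) for each of the 53 genes tested, ordered from lowest to highest and coloured by family. Filled points passed the test. They are 9 genes, all above 0, while Timp4 has the lowest value (-2.19) and Mmp25, with few reads, the highest (3.94).

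Fibroblast markers were higher in sum in every library labelled KO. The 6 markers (Pdgfra, Dcn, Lum, Tcf21, Col1a1 and Postn) had a summed level of 11680 to 13910 CPM in the libraries labelled KO and 2627 to 6064 CPM in control, all 6 had a fitted fold change above 0, in 4 of them the genotypes did not overlap, and 1, Postn, passed the test. Most of the sum in the libraries labelled KO came from Col1a1 (4924 ± 1505 against 2082 ± 1139 CPM, KO against control) and Postn (5160 ± 690 against 719 ± 471 CPM). Pdgfra (220 ± 39.2 against 185.5 ± 70.6 CPM) and Dcn (1598 ± 242 against 1467 ± 293.5 CPM) overlapped between genotypes (adjusted p = 0.633 and 0.778 by edgeR). None of the 6 markers was at 0 in any library. In whole tissue, more cells of a type and more RNA per cell cannot be told apart, and the part of cell makeup in the results below was not tested.

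Among the MMPs, 16 of 23 were tested, 2 rose and 0 fell (3 of the 16 had a fitted fold change below 0). Mmp2 (chromosome 8, 92827297 to 92853421, mm10), a gelatinase made largely by fibroblasts, was at 456, 654 and 556.5 CPM in the libraries labelled KO 1, 2 and 3, against 206, 269 and 299 CPM in control 1, 2 and 3. Each library labelled KO exceeded each control library. Its level was 2.15-fold higher by edgeR's fit (556 ± 98.95 against 258 ± 47.6 CPM, SD, n = 3 libraries each; log2 fold change 1.11 with an SE of 0.21, adjusted p = 0.0411). Mmp16 (chromosome 4, 17852893 to 18118734), a membrane-type MMP that can activate the Mmp2 precursor, was at 12.9, 12.5 and 11.97 CPM in the libraries labelled KO 1, 2 and 3, against 3.73, 5.73 and 3.69 CPM in control 1, 2 and 3. The libraries labelled KO lay within 1 CPM of each other, and all were well above every control library. Mmp16 rose 2.84-fold (log2 fold change 1.51 with an SE of 0.23, adjusted p = 0.0271 by edgeR).

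The other membrane-bound and abundant MMPs did not pass edgeR's test with all libraries. Of those given next, DESeq2 called Mmp14, Mmp23 and Mmp13 higher (adjusted p = 0.014, 0.00716 and 0.00445) and Mmp15 lower. The same 4 passed edgeR's test without control 3 (adjusted p = 0.0422, 0.0195 and 0.0473 for the 3 that were higher). Over 17 alternatives the adjusted p ranged from 0.014 to 0.329 for Mmp14, from 0.00716 to 0.319 for Mmp23 and from 0.00445 to 0.262 for Mmp13. Mmp14, the main activator of the Mmp2 precursor at the cell surface, was at 295.5, 391 and 236 CPM in the libraries labelled KO 1, 2 and 3, against 63.00, 152 and 178 CPM in control 1, 2 and 3. The genotypes did not overlap, but control 1 was far below the other control libraries (log2 fold change 1.23 with an SE of 0.39, adjusted p = 0.11 by edgeR). Mmp23, a small membrane-linked member, had 1804, 2517 and 1432 reads in the libraries labelled KO 1, 2 and 3, against 408, 697 and 969 reads in control 1, 2 and 3, in CPM again without overlap (adjusted p = 0.0775). Mmp15, another membrane-type MMP, went the other way, at 93.9, 61.7 and 74.5 CPM in the libraries labelled KO 1, 2 and 3, against 174, 141 and 89.2 CPM in control 1, 2 and 3. Control 3 lay between KO 3 and KO 1, so the genotypes overlapped (log2 fold change -0.81 with an SE of 0.27, adjusted p = 0.119), and without control 3 the gene passed the edgeR test (-1.04 on the log2 scale, adjusted p = 0.0167) and was the 1 member called lower there. DESeq2 called Mmp15 lower too (adjusted p = 0.0271, with 0.0167 to 0.336 over 17 alternatives). Mmp3, stromelysin-1, was at 15.01, 19.9 and 7.41 CPM in the libraries labelled KO, against 21.8, 27.1 and 32.7 CPM in control, each library labelled KO lying below each control (log2 fold change -0.94, adjusted p = 0.152 by edgeR). Mmp13, a collagenase of rodents, was low, at 3.49, 5.99 and 3.17 CPM in the libraries labelled KO, against 1.76, 1.16 and 1.34 CPM in control (adjusted p = 0.0703). Mmp11 and Mmp17 also lay higher in every library labelled KO than in any control (adjusted p = 0.115 and 0.259 by edgeR), and Mmp28 overlapped between genotypes (0.234). Mmp25, a membrane-type MMP of neutrophils, had 20, 89 and 37 reads in the libraries labelled KO 1, 2 and 3, against 6, 0 and 0 reads in control 1, 2 and 3, too few for its size of change to be read.

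**Figure D2:**
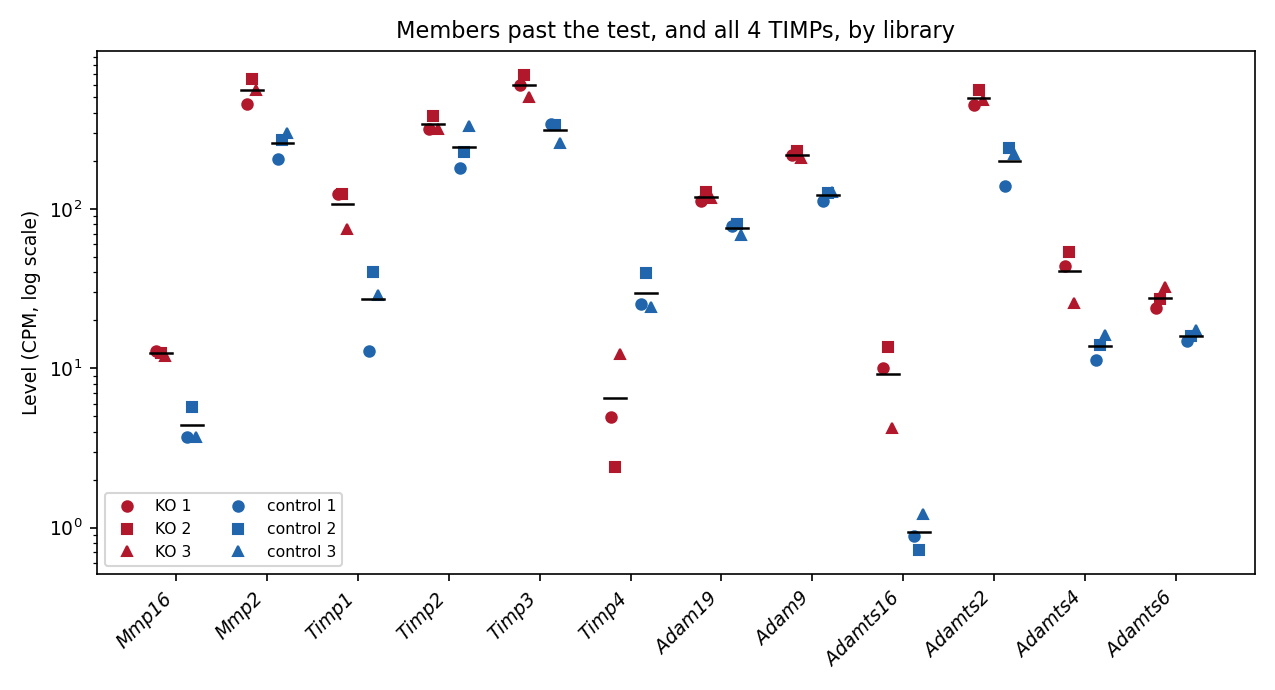
Level in CPM on a log axis for the 9 genes that passed the test and for all 4 TIMPs, with 1 point per library (red, labelled KO, left; blue, control, right) and black bars for the means of 3 libraries. Timp4 is the gene whose points lie lower in the libraries labelled KO, at 2.41 to 12.2 CPM against 24.1 to 39.5 CPM, and Timp2 overlaps between genotypes.

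The 4 TIMPs did not move alike. Timp3 (chromosome 10, 86300412 to 86349505) was at 602, 696 and 503 CPM in the libraries labelled KO 1, 2 and 3, against 342, 337 and 259 CPM in control 1, 2 and 3. Its genotypes were separate, and it rose 1.92-fold (600.2 ± 96.5 against 313 ± 46.2 CPM; log2 fold change 0.94 with an SE of 0.19, adjusted p = 0.0486 by edgeR). Timp1, an inhibitor known to be induced in injured tissue, had the larger difference, at 125, 125 and 74.5 CPM in the libraries labelled KO 1, 2 and 3, against 12.8, 39.96 and 28.6 CPM in control 1, 2 and 3. Control 1 was far below control 2, and the gene just missed the threshold (log2 fold change 1.99 with an SE of 0.42, adjusted p = 0.0536 by edgeR), whereas DESeq2 and limma on log2 FPKM called it, with adjusted p from 5.73e-05 to 0.189 over 17 alternatives. Timp2, which both inhibits MMPs and helps Mmp14 to activate the Mmp2 precursor, was at 317, 380.5 and 317 CPM in the libraries labelled KO 1, 2 and 3, against 181, 226.5 and 329.6 CPM in control 1, 2 and 3. Control 3 was as high as the libraries labelled KO (log2 fold change 0.46 with an SE of 0.23, adjusted p = 0.265 by edgeR). Without control 3 edgeR called Timp2 higher (0.73 on the log2 scale, adjusted p = 0.0237, with 0.0237 to 0.565 over 17 alternatives). Timp4, the TIMP with the most restricted expression and known for its presence in heart, was at 4.94, 2.41 and 12.2 CPM in the libraries labelled KO 1, 2 and 3, against 25.2, 39.5 and 24.1 CPM in control 1, 2 and 3. Every library labelled KO lay below every control, with KO 2 lowest and KO 3 highest of the 3 (6.52 ± 5.098 against 29.6 ± 8.56 CPM; log2 fold change -2.19 with an SE of 0.57, adjusted p = 0.0781 by edgeR), and DESeq2 and limma on log2(FPKM + 1) called it lower (adjusted p from 0.00117 to 0.253 over 17 alternatives). Cardiomyocyte markers were lowest in KO 2 too (17500 CPM), and whether this has a part in Timp4 was not tested.

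Exons of Timp3 share 1733 bases with Syn3, a gene on the opposite strand, in the GENCODE M21 annotation, and though the kit was a stranded one, the sources used here do not say whether counting used strand. Syn3 itself was counted at 0.438 to 0.897 CPM in the libraries labelled KO and 0.289 to 1.18 CPM in control. The overlap of Timp4 with Syn2 is 90 bases, and Syn2 was at 1.97 to 6.77 CPM in the libraries labelled KO and 3.45 to 6.72 CPM in control. Exons of Mmp11, Mmp19, Adam15, Adam17, Adamts7, Adamts8 and Adamts9 also overlap genes on the opposite strand in that annotation, so their counts are uncertain in the same way.

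Of 33 ADAMs, 16 were tested and 2 rose. Adam9 (chromosome 8, 24949611 to 25016922), a widely expressed sheddase, was at 217, 232 and 209 CPM in the libraries labelled KO 1, 2 and 3, against 112, 126 and 127 CPM in control 1, 2 and 3. No control library came near those labelled KO. It rose 1.800-fold (219 ± 11.7 against 122 ± 8.66 CPM; log2 fold change 0.85 with an SE of 0.12, adjusted p = 0.0216 by edgeR), and it was the single member still called when only the transcript with the most reads of each gene was used. Adam19 (chromosome 11, 46054502 to 46147347), meltrin beta, which is needed for heart valve and septum formation in the mouse embryo, was at 112, 127 and 118 CPM in the libraries labelled KO 1, 2 and 3, against 77.6, 80.4 and 68.6 CPM in control 1, 2 and 3. It rose 1.58-fold (119 ± 7.51 against 75.5 ± 6.15 CPM; log2 fold change 0.66 with an SE of 0.11, adjusted p = 0.0346 by edgeR). Its exons share 587 and 480 bases with the antisense genes Gm16033 and Gm16034.

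Of the general sheddases, Adam17 and Adam15 showed smaller differences, and Adam10 had a fitted change close to that of Adam19. Adam10, the main sheddase of Notch receptors, was at 139, 137 and 119.7 CPM in the libraries labelled KO, against 68.3, 89.6 and 103 CPM in control. Adam17, which releases TNF and ligands of the EGF receptor, was at 118, 122 and 113 CPM in the libraries labelled KO, against 85.3, 91.6 and 103 CPM in control. Adam15 was at 125, 119 and 115 CPM in the libraries labelled KO, against 103.5, 84.7 and 101 CPM in control. In all 3 genes each library labelled KO exceeded each control, by log2 fold changes of 0.60, 0.34 and 0.31, without passing edgeR's test (adjusted p = 0.0905, 0.123 and 0.158). DESeq2 called Adam10 higher, and without control 3 edgeR called Adam10 and Adam17, with adjusted p over 17 alternatives from 0.0197 to 0.259 for Adam10 and from 0.0326 to 0.357 for Adam17. Adam12, meltrin alpha, ranged widely, at 90.9, 125 and 41.5 CPM in the libraries labelled KO 1, 2 and 3, against 15.3, 55.6 and 75.9 CPM in control 1, 2 and 3. KO 3 lay below both control 2 and control 3 (adjusted p = 0.444). Adam22 and Adam23, which lack proteinase activity and act in cell adhesion, overlapped between genotypes (adjusted p = 0.433 and 0.973). Adam11, of the same group, was slightly lower in every library labelled KO, at 4.69, 4.98 and 5.51 CPM in the libraries labelled KO, against 6.28, 6.07 and 7.54 CPM in control (adjusted p = 0.283 by edgeR).

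The ADAMTS genes held 4 of the 9 risers, from 17 tested of 19. Adamts2 (chromosome 11, 50602085 to 50807573), which removes the amino-terminal propeptide of fibrillar procollagens, was at 451, 557 and 481 CPM in the libraries labelled KO 1, 2 and 3, against 139.8, 240.1 and 221 CPM in control 1, 2 and 3. No control library reached the lowest of those labelled KO, and the gene rose 2.48-fold (496 ± 54.4 against 200.3 ± 53.3 CPM; log2 fold change 1.31 with an SE of 0.23, adjusted p = 0.0366 by edgeR). Its relatives with the same known activity did not pass, Adamts14 being at 8.21, 12.1 and 5.11 CPM in the libraries labelled KO, against 2.45, 8.28 and 9.16 CPM in control, and Adamts3 at 14.8, 16.8 and 11.4 CPM in the libraries labelled KO, against 14.1, 17.6 and 14.6 CPM in control (adjusted p = 0.713 and 0.759). Both overlapped between genotypes.

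Adamts16 (chromosome 13, 70727808 to 70841811) had the largest fold of the 9, from a low level. It had 289, 486 and 115 reads in the libraries labelled KO 1, 2 and 3, against 18, 15 and 30 reads in control 1, 2 and 3. In CPM it was at 9.97, 13.6 and 4.197 in the libraries labelled KO, against 0.882, 0.722 and 1.22 in control (log2 fold change 3.29 with an SE of 0.49, adjusted p = 0.0261 by edgeR). Adamts6 (chromosome 13, 104287835 to 104496695), a close relative of Adamts10 that also acts on microfibrils, was at 23.8, 27.2 and 32.4 CPM in the libraries labelled KO 1, 2 and 3, against 14.8, 15.8 and 17.5 CPM in control 1, 2 and 3 (log2 fold change 0.79 with an SE of 0.16, adjusted p = 0.0451). Its call was also lost with RLE size factors, with the library total as the scaling and in both limma fits. Adamts10 was at 82.1, 104 and 115 CPM in the libraries labelled KO, against 48.1, 38.2 and 66.4 CPM in control, without overlap (adjusted p = 0.0662 by edgeR).

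Adamts4 (chromosome 1, 171250129 to 171262267), an aggrecanase that also cuts versican, was at 43.8, 53.7 and 25.5 CPM in the libraries labelled KO 1, 2 and 3, against 11.3, 14.01 and 16.2 CPM in control 1, 2 and 3. It rose 2.96-fold (41.01 ± 14.3 against 13.8 ± 2.45 CPM; log2 fold change 1.56 with an SE of 0.29, adjusted p = 0.0403 by edgeR). Other proteoglycan-cutting members differed less. Adamts1 was at 118, 111 and 90.8 CPM in the libraries labelled KO, against 101, 102 and 90.7 CPM in control, Adamts5 at 92.2, 122.5 and 97.1 CPM in the libraries labelled KO, against 91.3, 93.6 and 113 CPM in control and Adamts9 at 60.3, 70.1 and 45.7 CPM in the libraries labelled KO, against 43.6, 51.2 and 67.9 CPM in control. All 3 overlapped between genotypes (adjusted p = 0.609, 0.815 and 0.78 by edgeR). Adamts15 was highest in control 3, at 49.4, 71.1 and 25.5 CPM in the libraries labelled KO, against 40.7, 68.5 and 123 CPM in control (adjusted p = 0.421). Adamts12 was at 115.5, 138 and 102 CPM in the libraries labelled KO, against 28.8, 43.6 and 80.2 CPM in control, each library labelled KO above each control (adjusted p = 0.0962), and Adamts17 likewise at 9.699, 13.8 and 8.32 CPM in the libraries labelled KO, against 3.77, 1.78 and 4.34 CPM in control (adjusted p = 0.0624). Adamts7 was slightly lower in every library labelled KO, at 19.9, 22.8 and 19.6 CPM in the libraries labelled KO, against 22.9, 25.8 and 23.3 CPM in control (adjusted p = 0.338). DESeq2, and edgeR without control 3, called Adamts10, Adamts12 and Adamts17 higher, with adjusted p over 17 alternatives from 0.00268 to 0.206, from 0.0106 to 0.2996 and from 0.00103 to 0.209 in that order. In Adamts8 a single library stood out, KO 1, with 47.7, 5.29 and 5.84 CPM in the libraries labelled KO, against 5.83, 8.04 and 1.86 CPM in control, and its fitted log2 fold change of 1.91 (adjusted p = 0.273 by edgeR) was 0.09 without KO 1.

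**Figure D3:**
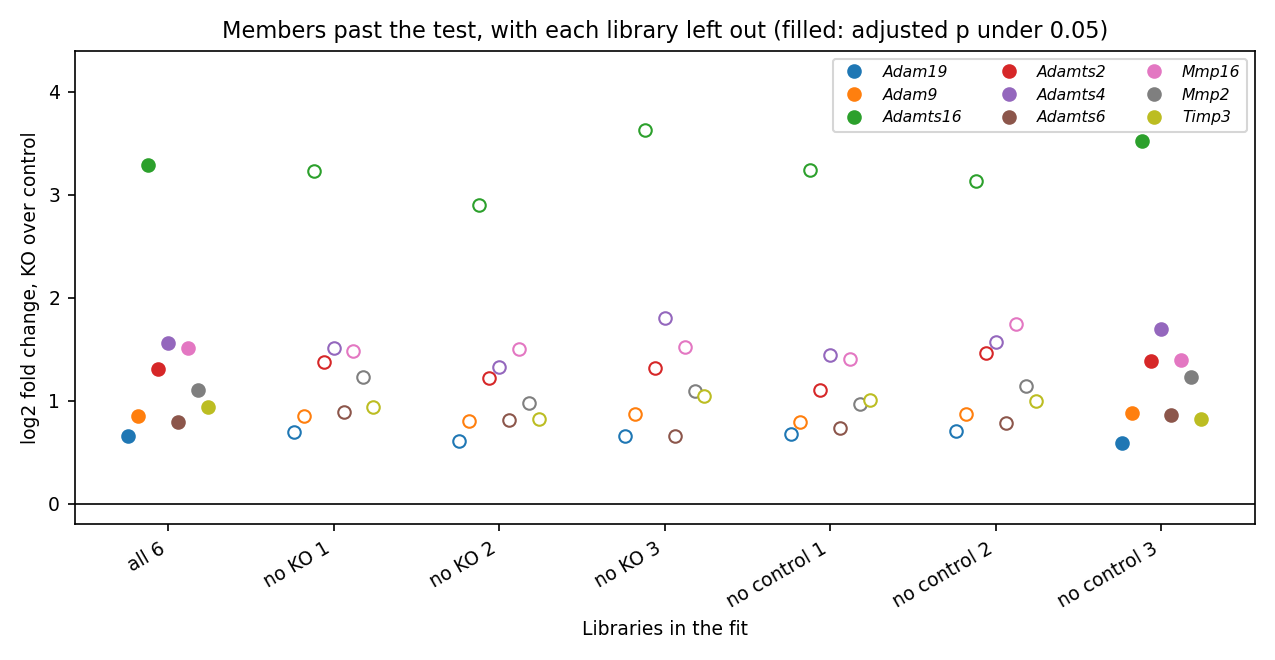
Fitted log2 fold change, KO over control, of the 9 genes that passed the test (vertical axis), with all 6 libraries and with each library left out (horizontal axis). Filled points have an adjusted p under 0.05. All points lie above 0, and those filled outside the full fit are all in the fit without control 3.

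Levels between genes were compared per transcript length, as RPKM (CPM per kilobase of the longest deposited transcript). Mmp2 led the MMPs in both genotypes (181 ± 32.2 against 83.97 ± 15.5 RPKM, KO against control), ahead of Mmp14 (80.9 ± 20.6 against 34.5 ± 15.9 RPKM) and Mmp23 (42.99 ± 6.34 against 21.6 ± 6.91 RPKM). In control, Mmp15 (17.8 ± 3.76 against 31.2 ± 9.86 RPKM) had a higher mean than Mmp23, and did not differ from Mmp23 or Mmp14 beyond the spread. Among the TIMPs the order also differed by genotype. Timp3 and Timp1 stood at 128 ± 20.6 and 121 ± 32.5 RPKM in the libraries labelled KO, a difference below the spread, and at 66.8 ± 9.87 and 30.5 ± 15.3 RPKM in control. Timp2 had 93.4 ± 10.1 against 67.8 ± 21.01 RPKM, so that in control it did not differ from Timp3 beyond the spread. Adam9 and Adam15 led the ADAMs, at 54.2 and 39.8 RPKM in the libraries labelled KO and 30.1 and 32.1 RPKM in control. Adamts2 led the ADAMTS genes, at 68.3 ± 7.49 against 27.6 ± 7.33 RPKM.

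Summed over each family, the level was higher in every library labelled KO than in any control. The MMPs summed to 353, 467 and 326 RPKM in KO 1, 2 and 3, against 162, 217 and 261 RPKM in control 1, 2 and 3. The TIMPs summed to 359.7, 395.5 and 287 RPKM in the libraries labelled KO, against 155, 207 and 196 RPKM in control. ADAMs and ADAMTS genes were 1.49 and 1.6 times as high in mean summed level in KO as in control. The ratio of summed TIMP to summed MMP levels was 1.02, 0.847 and 0.882 in the libraries labelled KO and 0.959, 0.954 and 0.749 in control, so the genotypes overlapped. Within the TIMP sum, Timp1 gave 38.9%, 35.4% and 29.1% in the libraries labelled KO, against 9.3%, 21.7% and 16.4% in control. Timp4 gave 1.0%, 0.4% and 3.0% in the libraries labelled KO, against 11.5%, 13.4% and 8.7% in control. Neither share overlapped between genotypes.

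**Figure D4:**
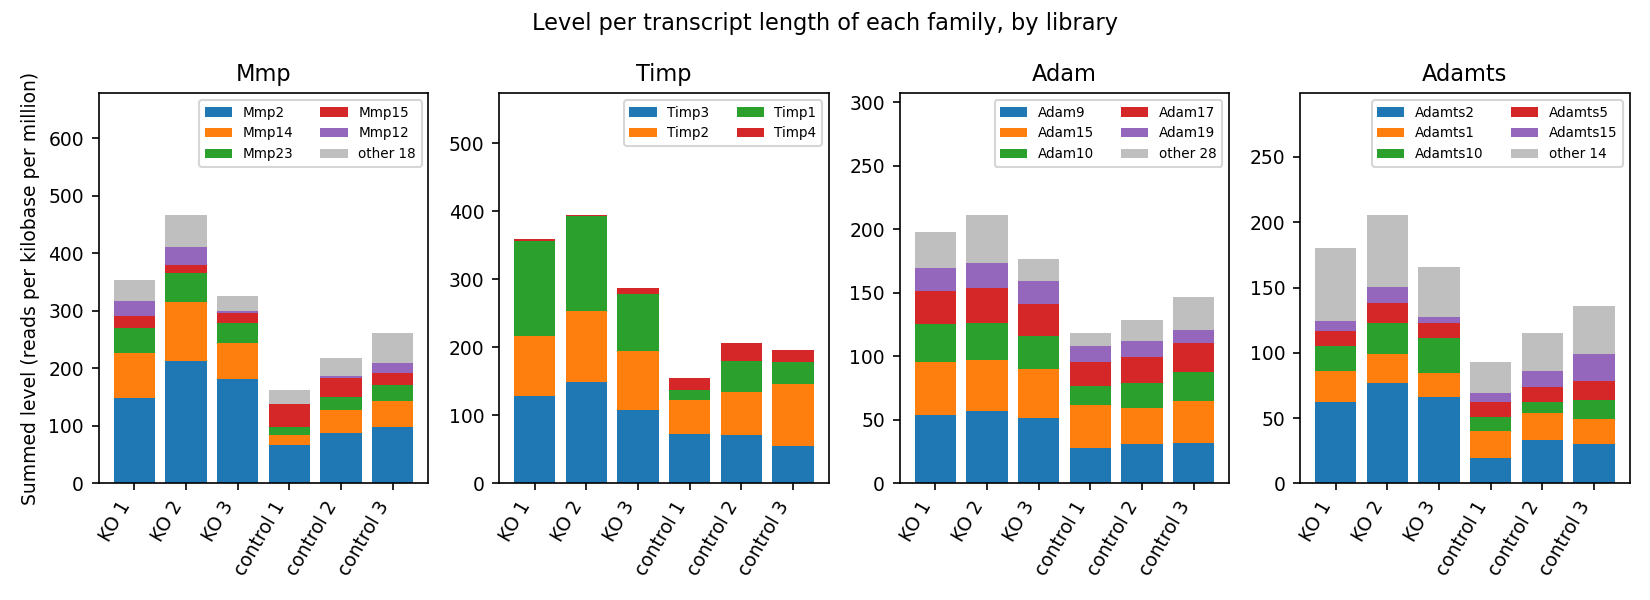
Summed level per transcript length (RPKM) of each family in each library, split into the 5 members with the highest level (4 for TIMPs) and the rest in grey. All 4 families are highest in KO 2 and lowest in control 1, and Mmp2, Timp3, Adam9 and Adamts2 give the bottom blocks.

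A group of MMP genes lies side by side on chromosome 9. The table places 10 members between 7272514 and 7699585 (mm10), a span of 427 kb, in the order Mmp13, Mmp12, Mmp1b, Mmp3, Mmp1a, Mmp10, Mmp8, Mmp27, Mmp20 and Mmp7. AP-1, a dimer of Fos and Jun proteins, is the factor classically tied to promoters of this group, and its letters TGANTCA, which read the same on both strands, were searched in the RefSeq promoters (GRCm38.p6, 250 bases before to 50 after the start). The group has 12 promoters in that table, since Mmp12 and Mmp7 have a pair each, and 8 of the 12 held the letters, beginning 35 to 95 bases before the start. Over all 32851 promoters of the same length 7.81% held them. Counted per gene, 8 of the 10 held them in at least 1 promoter, against 8.97% of 27025 genes. In Mmp12 the match lies before the start at 7347374, whose transcripts held 92.9% of the gene's reads, and the promoter of the start at 7344397 held none. The 8 matches are shown with 17 bases on each side, 5′ to 3′ on the gene's strand, the matched letters in capitals, because they are the shared sequence of the group.
Mmp13 (chr9:7272462-7272502, plus strand): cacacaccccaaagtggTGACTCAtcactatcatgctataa
Mmp12 (chr9:7347313-7347353, plus strand): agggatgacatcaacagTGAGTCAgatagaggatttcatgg
Mmp1b (chr9:7388096-7388136, minus strand): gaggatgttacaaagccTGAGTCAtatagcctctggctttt
Mmp3 (chr9:7445759-7445799, plus strand): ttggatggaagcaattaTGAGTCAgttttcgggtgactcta
Mmp1a (chr9:7464051-7464091, plus strand): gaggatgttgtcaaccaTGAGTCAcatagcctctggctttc
Mmp10 (chr9:7502262-7502302, plus strand): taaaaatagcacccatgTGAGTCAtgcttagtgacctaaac
Mmp20 (chr9:7628119-7628159, plus strand): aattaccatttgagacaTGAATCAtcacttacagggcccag
Mmp7 (chr9:7692010-7692050, plus strand): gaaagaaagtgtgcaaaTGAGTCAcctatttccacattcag
The match was TGAGTCA in 6 of the 8, TGACTCA in Mmp13 and TGAATCA in Mmp20. Mmp8, Mmp27 and the other promoters of Mmp12 and Mmp7 held none in this window.

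Expression within the group was uneven. Mmp1a, Mmp1b, Mmp7 and Mmp20 had 0 reads in all 6 libraries, which allows up to 0.0839 to 0.147 CPM per library (3 reads, counting error only), and Mmp10 had 3 and 6 reads in KO 1 and KO 2 and 0 elsewhere. Mmp12, macrophage elastase, had 2744, 4202 and 253 reads in the libraries labelled KO 1, 2 and 3, against 19, 210 and 1591 reads in control 1, 2 and 3. In CPM these were 94.7, 118 and 9.23 in the libraries labelled KO and 0.931, 10.1 and 64.5 in control. The control libraries differed 69.2-fold among themselves, the widest range of any member within control, and the genotypes overlapped (log2 fold change 1.55 with an SE of 1.41, adjusted p = 0.531 by edgeR). Mmp8, the collagenase of neutrophils, was at 2.002, 4.48 and 0.219 CPM in the libraries labelled KO, against 0.147, 1.300 and 2.88 CPM in control (adjusted p = 0.773). Mmp3 and Mmp13, whose promoters both hold the letters, had fitted changes in opposite directions (-0.94 and 1.57).

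Several members, most of them known from leukocytes, overlapped between genotypes and varied widely within each. Mmp9, the gelatinase of neutrophils and macrophages, was at 8.66, 21.9 and 0.657 CPM in the libraries labelled KO 1, 2 and 3, against 1.03, 2.46 and 22.2 CPM in control 1, 2 and 3. Adam8, a membrane proteinase of myeloid cells, was at 26.7, 41.5 and 10.9 CPM in the libraries labelled KO, against 0.981, 6.84 and 16.5 CPM in control, and Mmp19 at 33.7, 61.2 and 23.1 CPM in the libraries labelled KO, against 8.29, 20.03 and 51.4 CPM in control. Each of Mmp12, Mmp8, Mmp9, Adam8 and Mmp19 was highest in KO 2 among the libraries labelled KO and highest in control 3 among control. The 6 neutrophil markers summed to 36.6, 74.2 and 13.1 CPM in KO 1, 2 and 3, against 5.88, 14.7 and 91.1 CPM in control 1, 2 and 3, with Ly6g at 0 in all libraries except control 3. The 7 macrophage markers summed to 1761, 2456 and 1535 CPM in the libraries labelled KO, against 682, 956 and 2048 CPM in control, with none at 0. KO 2 and control 3 were thus the highest of their genotype for both lists. They were so for the 4 adipocyte markers as well, which summed to 231, 427 and 2.299 CPM in the libraries labelled KO, against 114, 57.1 and 899.8 CPM in control. Of 4 atrial markers, Myl4 set libraries apart in another way, at 315, 6.24 and 2.52 CPM in the libraries labelled KO, against 204, 176 and 2.31 CPM in control. Myl7 and Sln were likewise high in KO 1, control 1 and control 2 alone. Nppa was not, at 2417, 2348 and 3020 CPM in the libraries labelled KO, against 442, 571 and 108 CPM in control. None of Mmp12, Mmp8, Mmp9, Adam8 and Mmp19 passed edgeR's test (adjusted p = 0.531, 0.773, 0.92, 0.288 and 0.629 in that order). The part of leukocytes, fat or atrial tissue in their spread was not tested.

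**Figure D5:**
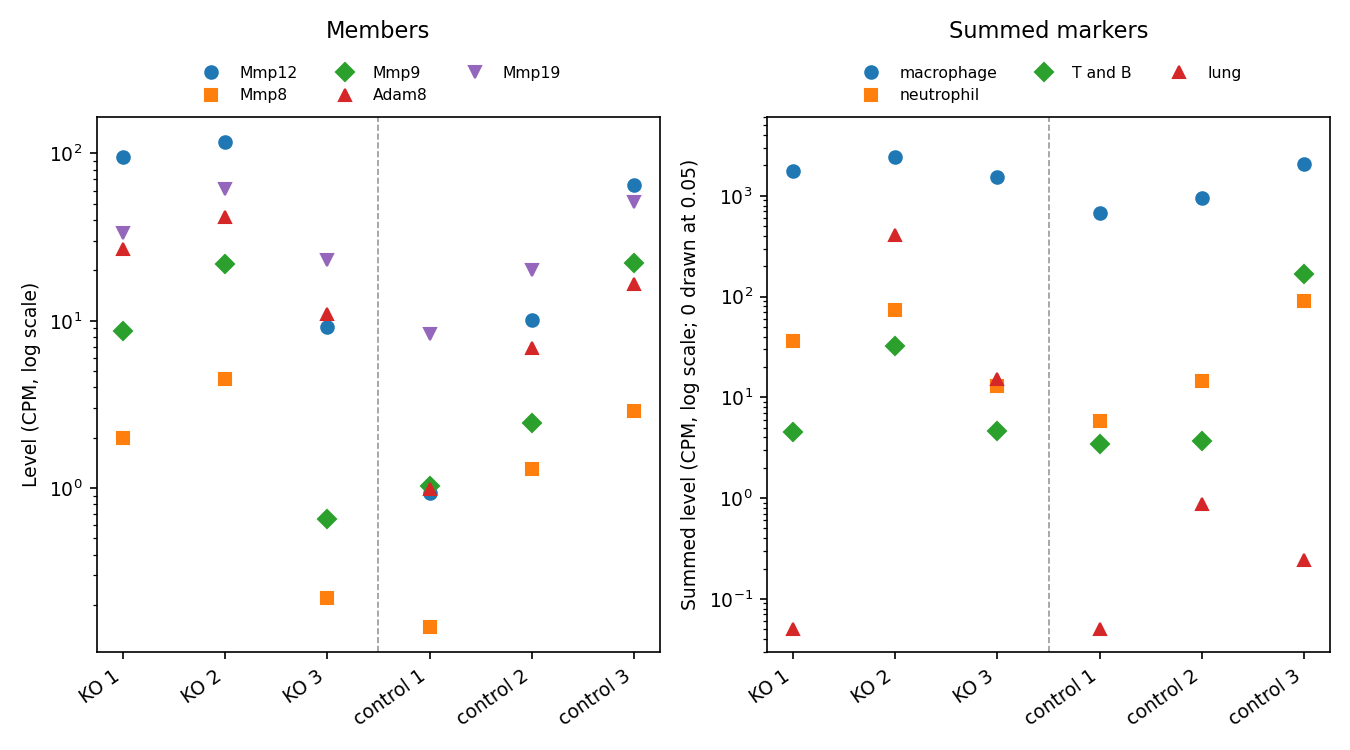
Left, level in CPM (log axis) of 5 members that varied widely, in each library, and right, summed CPM (log axis) of markers of macrophages, neutrophils, T and B cells and lung. KO 2 and control 3 are the highest of their genotype for all 5 members and for the macrophage and neutrophil sums, and the lung sum is high in KO 2 alone (405 CPM).

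Over the 53 tested members, KO 2 was the highest library of its genotype for 31 and KO 3 the lowest for 33, and control 3 was the highest for 35 and control 1 the lowest for 32. The median level of the 53 relative to the mean of all libraries (log2) was 0.29, 0.46 and 0.11 in KO 1, 2 and 3, against -0.50, -0.34 and -0.01 in control 1, 2 and 3. The libraries of the genotypes did not overlap in this median, and control 3 came nearest to the libraries labelled KO.

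Promoters were in the RefSeq table for 49 of the 79 members, among them 3 of the 9 risers. The promoters of these 3 are shown because the genes passed the test, with AP-1 letters in capitals.
Adam19 promoter (chr11:46055734-46056033, plus strand): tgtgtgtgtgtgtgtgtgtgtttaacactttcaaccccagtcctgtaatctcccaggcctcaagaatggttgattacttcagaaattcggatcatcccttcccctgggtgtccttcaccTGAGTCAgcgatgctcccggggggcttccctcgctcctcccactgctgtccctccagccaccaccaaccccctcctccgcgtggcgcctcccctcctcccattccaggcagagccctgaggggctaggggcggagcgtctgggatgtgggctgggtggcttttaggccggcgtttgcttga
Adamts2 promoter (chr11:50601835-50602134, plus strand): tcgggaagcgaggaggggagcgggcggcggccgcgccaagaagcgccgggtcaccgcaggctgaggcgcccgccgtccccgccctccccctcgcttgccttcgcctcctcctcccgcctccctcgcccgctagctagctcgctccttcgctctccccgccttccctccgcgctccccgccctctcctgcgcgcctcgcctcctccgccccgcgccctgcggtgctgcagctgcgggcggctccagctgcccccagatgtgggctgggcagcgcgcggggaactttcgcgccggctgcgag
Timp3 promoter (chr10:86300162-86300461, plus strand): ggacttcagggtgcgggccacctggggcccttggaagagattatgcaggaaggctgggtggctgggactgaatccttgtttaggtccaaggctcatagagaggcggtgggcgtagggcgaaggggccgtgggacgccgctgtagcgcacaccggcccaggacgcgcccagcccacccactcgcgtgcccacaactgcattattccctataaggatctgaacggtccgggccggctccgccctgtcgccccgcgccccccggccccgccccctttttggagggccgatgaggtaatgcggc
The Adam19 promoter shown belongs to the start of the transcripts that held 91.2% of the gene's reads or more in every library, and it holds TGAGTCA 131 bases before the start. Adam19 also has promoters at chr11:46054252-46054551 and chr11:46127654-46127953, not shown, and neither holds the AP-1 letters. The Adamts2 and Timp3 promoters, with 77.3% and 67% G and C, hold no AP-1 letters in this window. Over all members the AP-1 letters were in 13 of 54 promoters (24.1%), 8 of them in the chromosome 9 group. CATTCC, the core letters of TEAD factors, were in 4 of 54 (7.41%, against 14.7% of all promoters), and TGTGGT, those of RUNX factors, in 12 of 54 (22.2%, against 16.8%), both strands searched.

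For 16 members with several transcripts and at least 100 reads in every library, the share of reads per transcript was examined. Since no source used here says how reads were divided among isoforms, these shares are uncertain. In Mmp19 the shorter transcript NM_001164197 held 45.1%, 37.4% and 40.0% of the reads in KO 1, 2 and 3, against 0.59%, 22.6% and 1.74% in control 1, 2 and 3. The genotypes were apart by 14.8 percentage points. Shares that did not overlap were 5 of the 55 examined (9.09%), against 11.2% of the 11427 transcripts of all genes under the same rule, so the count of such shares was near the background. The remaining non-overlapping shares, in Adamts10 and Adamts15, were separated by at most 0.07 points. Shares of near-identical transcripts shifted without regard to genotype in other genes, such as NM_001081401 of Adamts3, which held 98.7% in KO 2, 5.84% and 12.5% in KO 1 and KO 3, and 7.76% to 10.1% in control.

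Genes that control MMPs were examined as a list of 27 (convertases, the plasminogen system, serpins and other inhibitors). Of 23 tested, 5 rose and 0 fell by edgeR's test (8 and 1 at an unadjusted p under 0.05, where all genes gave 12.3% and 13.5%, and 7 and 1 by DESeq2, where they gave 7.74% and 9.32%), the median log2 fold change being 0.45. Serpine2, an inhibitor of serine proteinases, rose, at 161 ± 26.7 against 48.99 ± 12.9 CPM (KO against control, adjusted p = 0.0177 by edgeR). Reck, a membrane-anchored inhibitor of MMPs, was at 22.4, 25.6 and 22.99 CPM in the libraries labelled KO, against 14.6, 10.5 and 9.81 CPM in control (adjusted p = 0.0391 by edgeR). The serine proteinase Prss23 (91.9 ± 5.800 against 52.6 ± 8.62 CPM) and the plasminogen activator Plat (110.3 ± 4.75 against 73.2 ± 1.56 CPM) rose too (adjusted p = 0.0389 and 0.0309). By edgeR's test with all libraries, 2.64% of all genes rose and 1.12% fell. The list's count of 5 risers became 0 or 1 in the 5 fits without a library other than control 3. Without control 3 the list had 7 higher and 1 lower, where 1765 and 1959 of the 14775 genes tested were.

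Of 14 tested partners of ADAM10 and ADAM17 (the iRhoms, TspanC8 tetraspanins and subunits of gamma-secretase), 0 rose and 0 fell by edgeR (2 and 0 at an unadjusted p under 0.05, 2 and 0 by DESeq2, against the same shares of all genes), the median log2 fold change being 0.08. Of 30 tested membrane proteins that ADAMs release, 4 rose and 0 fell (12 and 1 at an unadjusted p under 0.05, 10 and 0 by DESeq2). They were the EGF receptor ligands Ereg, at 6.76, 11.1 and 5.51 CPM in the libraries labelled KO, against 0.539, 0.433 and 0.365 CPM in control, and Hbegf, at 45.04, 51.7 and 46.9 CPM in the libraries labelled KO, against 29.1, 21.3 and 16.1 CPM in control, and the membrane-bound chemokines Cxcl16 (65.8 ± 10.1 against 21.2 ± 4.08 CPM) and Cx3cl1 (35.98 ± 5.12 against 14.5 ± 4.52 CPM), with adjusted p = 0.0105, 0.045, 0.0141 and 0.0423 by edgeR. Of 22 tested substrates of ADAMTS enzymes and partners of fibrillin, 6 rose and 0 fell (12 and 1 at an unadjusted p under 0.05, 10 and 0 by DESeq2), the median log2 fold change being 1.03. Adamtsl2 and Adamtsl3, ADAMTS-like proteins without a proteinase domain, rose (209 ± 40.2 against 43.2 ± 23.5 CPM and 86.2 ± 24.97 against 18.7 ± 3.63 CPM), as did the microfibril genes Mfap5 (267 ± 29.9 against 63.9 ± 15.4 CPM) and Fbn1 (2163 ± 278 against 673.5 ± 147 CPM), with adjusted p = 0.0403, 0.013, 0.0106 and 0.024 by edgeR. For these last 2 lists, the shares of all genes were again 2.64% higher and 1.12% lower by edgeR. They were 12.3% and 13.5% at an unadjusted p under 0.05, and 7.74% and 9.32% by DESeq2. Without a library other than control 3, the 2 lists held 0 to 2 risers, where 3 to 76 of all genes rose. Without control 3 each list held 11, where 1765 of the 14775 genes tested rose.

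The 26 members that were not tested had 55 reads or fewer over all 6 libraries together. Of these, 18 had 0 reads, 12 of them ADAMs, among them Adam2 and other genes known from the testis, and 1 was Adamts13, which cuts von Willebrand factor and is made mainly in liver. Small counts need care, since a count of 3 was given to 632 to 725 transcripts per library and a count of 2 or of 4 to fewer than 400, so low counts are coarse.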

How the data were processed

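Per the labels' protocols, libraries were made from total RNA of remote left ventricle with a stranded kit. The submitters' processing notes name Bowtie2, HISAT2 and mm10, but neither their versions nor what each did. No source used here gives the counting program, the annotation or whether strand was used. The authors deposited 1 table of 36780 RefSeq transcripts with a whole-number read count and an FPKM value per library, per the file headers. Libraries were assigned to genotypes by column name, and 0 per-sample columns were left unmapped. Counts were summed per gene symbol. They were tested with edgeR 4.0.16 (R 4.3.3; TMM scaling, filterByExpr, robust quasi-likelihood test, Benjamini-Hochberg adjustment over all 14466 genes tested). The alternatives were other scalings and filters, DESeq2 1.42.0, limma 3.58.1 on log2(FPKM + 1) and log2(FPKM + 0.1), the transcript with the most reads, a replicate block, each library left out, and edgeR without robust estimation, the last added after seeing the data. Limits for a count of 0 use 3 reads and cover counting error only.

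The genes and lists were chosen with earlier results of these data known. Named by rule were all members past the test, all TIMPs, the 5 MMPs, ADAMs and ADAMTS genes with the highest mean CPM in each family, and up to 4 genes past the test in each other list. Other named genes, the chromosome 9 group and its printed sequences were chosen after values were seen. No source used here says whether library numbers pair the samples, and the main fit did not pair them. Same-numbered KO and control libraries had correlations of deviations of 0.291, -0.302 and -0.337 over genes. Those of differently numbered libraries ran from -0.493 (KO 2 with control 1) to 0.562 (KO 2 with control 3). Since the deviations are from the mean of only 3 libraries a genotype, they cannot decide whether the numbers pair the samples. Tables and figures were made with Python 3.11.15, pandas 2.3.3 and matplotlib 3.10.9. Some results are not reported here.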

Additional observations from a re-analysis of the deposited data

How the results depend on the processing

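The 9 members that passed the test kept a fold change above 0 under all 17 alternatives, but not their calls. Of the members tested, 12 changed sign under some alternative, none of them called by edgeR with all libraries. Against 382 genes higher and 162 lower by edgeR, with 9 members higher, 0 lower and a median of 0.63, DESeq2 called 1120 and 1348 genes, with 17 members higher and 2 lower. With limma on log2(FPKM + 1), 335 genes and 1 member were lower, and the members' median was 0.41 on that scale, which understates changes of low genes. On log2(FPKM + 0.1), 306 genes were lower. With the transcript with the most reads, 135 and 36 genes and 1 member were called. Leaving out 1 library gave 3 to 1765 genes higher, 0 to 1959 lower, 0 to 19 members higher, 0 to 1 lower and a median of 0.39 to 0.86. The upper end of each count came without control 3. With the replicate block, 5 genes were higher and 0 lower, and 0 members were called (19 at an unadjusted p under 0.05). The cause of these changes was not tested. Scaling by library total moved the median of all genes to 0.11, and 8 members were still called there and with RLE factors. With 3 libraries a genotype, 1 labelled KO holding Nmrk2 reads, and no statement that libraries are separate animals, the calls rest on few samples.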
